A study of Mus musculus with 7 samples.

Results

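The 10 enzymes described here break down tryptophan along the kynurenine pathway (Ido1, Ido2, Afmid, Kmo, Kynu), make nitric oxide from arginine or supply and consume that arginine (Nos2, Ass1, Arg2), or make tetrahydrobiopterin (Gch1, Pts). They were taken by gene symbol from the 56953 genes of the count files. Their RNA was measured in tumours of B16, a mouse melanoma line, after 8 Gy of radiotherapy (RT), to compare mice given the vector AAV-iIL12 (3 libraries) with mice given the control vector AAV-iLuc (4 libraries). AAV is adeno-associated virus, used for gene delivery, and IL12 is interleukin 12. Tumours were taken on day 5, and live cells without CD45, the common leukocyte surface protein, and without CD31, an endothelial surface protein, were sorted. All 7 mice therefore shared the irradiation and an AAV vector, and no group without either was analysed here. The strain, sex and age of the mice, the vector's promoter and the meaning of the letter i in the vector names are not given in the sources used here. The titles of the AAV-iIL12 libraries carry the letters WT, which the labels do not explain.

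Tryptophan is opened by the dioxygenases IDO1 and IDO2, the formamidase AFMID then yields kynurenine, and KMO and KYNU process kynurenine further. The inducible synthase NOS2 turns arginine into nitric oxide and citrulline and needs tetrahydrobiopterin to do so, ASS1 begins the return of citrulline to arginine, and the mitochondrial arginase ARG2 splits arginine into ornithine and urea. GCH1 carries out the first, rate-limiting step of tetrahydrobiopterin synthesis, PTS the second and sepiapterin reductase (Spr) the last. Interferon gamma, which interleukin 12 elicits from T and NK cells, is a textbook inducer of Ido1, Nos2 and Gch1 in macrophages and in many other cell types.

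Total counts per library ranged from 16356653 to 19080587. Il12a and Il12b, the genes of the interleukin 12 subunits, had 259 to 272 and 346 to 435 counts in the AAV-iIL12 libraries, against 0 and 0 to 2 counts in the AAV-iLuc libraries. These counts match the vector labels. Ifng had 14, 15 and 3 counts in AAV-iIL12 and 1, 0, 0 and 0 counts in AAV-iLuc. The melanocyte enzyme gene Dct had between 130356 and 152089 counts in every library, so melanoma RNA was abundant throughout. AAV-iLuc replicate 1 stood apart from the rest of its group in some leukocyte markers, in Nos2 and in the interferon regulatory factor genes Irf1 and Irf8. For the tested enzymes the comparisons are given with and without it, where enough counts were left. Levels are in CPM, the standard unit of counts relative to the library total, after TMM scaling, which adjusts the totals for composition. Group differences are log2 fold changes, AAV-iIL12 over AAV-iLuc, with their standard error (SE). Calls use edgeR's quasi-likelihood test with Benjamini-Hochberg adjusted p under 0.05 over all genes tested.

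Of the 10 enzymes, 2 rose in AAV-iIL12 tumours, Nos2 and Gch1. None fell among the 6 tested, Ido2, Afmid, Pts and Ass1 did not pass the test, and Ido1, Kynu, Kmo and Arg2 had too few counts to be tested. Across all 13990 genes tested, 23.5% were called higher and 23.7% lower, so 2 of 6 is a small count to set beside that background. Nos2 reached 10 counts in all 3 AAV-iIL12 libraries but only in replicates 1 and 4 of AAV-iLuc, and Ido2 did so in 2 AAV-iIL12 libraries and in the same pair of controls. The groups did not overlap for Nos2 and Gch1, which is 2 of the 6 tested enzymes, against 52.5% of all tested genes. Without AAV-iLuc replicate 1, 5 of the enzymes were tested, Nos2 and Gch1 were called higher and none lower, where 22.8% and 22.3% of 13801 genes were called higher and lower. In bulk RNA from sorted cells, fewer cells of a type and less RNA per cell cannot be told apart.

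**Figure D1:**
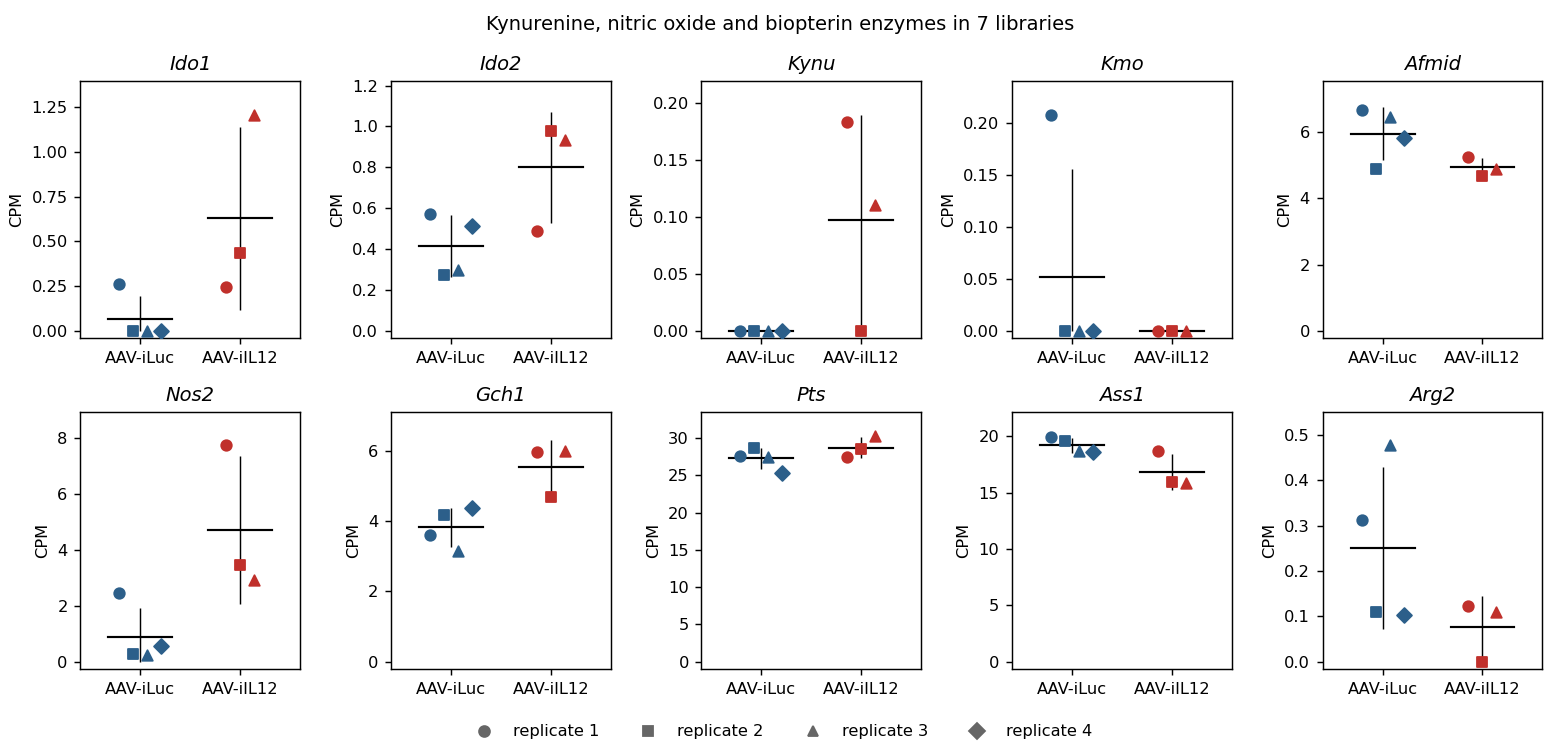
CPM of the 10 enzymes (vertical axes, linear and starting at 0) in each library, with AAV-iLuc in blue (n = 4) and AAV-iIL12 in red (n = 3). Symbols give the replicate number, horizontal bars the group mean and vertical bars the SD, not drawn below 0. Only Nos2 and Gch1 have all AAV-iIL12 points above all AAV-iLuc points, and AAV-iLuc replicate 1 is the highest control for Nos2 and the only control with counts for Ido1 and Kmo.

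Gch1 and Pts encode successive steps of the same pathway, and Gch1 rose while Pts did not pass the test, so the 250 bases before their start sites are shown side by side. The sequences are RefSeq entries on GRCm38.p6, an older build than the GRCm39 of the counts, and both are on the minus strand, 5′ to 3′, Gch1 at chr14:47189414-47189663 and Pts at chr9:50528657-50528906.
Gch1: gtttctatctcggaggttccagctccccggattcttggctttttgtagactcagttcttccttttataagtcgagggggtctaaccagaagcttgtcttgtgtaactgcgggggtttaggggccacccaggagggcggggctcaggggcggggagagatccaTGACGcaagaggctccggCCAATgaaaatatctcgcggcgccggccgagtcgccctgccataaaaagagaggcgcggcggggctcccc
Pts: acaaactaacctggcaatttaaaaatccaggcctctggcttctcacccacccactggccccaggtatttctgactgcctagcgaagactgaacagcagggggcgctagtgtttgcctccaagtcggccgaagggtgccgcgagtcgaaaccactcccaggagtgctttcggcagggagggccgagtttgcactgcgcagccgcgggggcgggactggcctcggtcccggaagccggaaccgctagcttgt
Capitals mark CCAAT, the letters of the CCAAT box, and TGACG, the core of a cyclic AMP response element, both searched on both strands. These 2 motifs were chosen after the letters had been read. CCAAT begins 70 bases and TGACG 88 bases before the Gch1 start, the motifs do not overlap, and neither is in the Pts window. Of 32851 windows of the same length, 33.8% hold CCAAT and 17.8% hold TGACG. The gamma-activated site TTCNNNGAA and the interferon response core GAAANNGAA are in neither window, and 7.02% and 7.13% of all windows hold them. The table of promoters held 5 of the 10 enzymes, and Kmo, Afmid and Ass1 have none of the 4 motifs. A match or its absence describes only these letters in this window.

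Gch1 (ENSMUSG00000037580, chromosome 14, 47391352 to 47426870, minus strand, GRCm39) stood at 5.97, 4.67 and 5.99 CPM in AAV-iIL12 replicates 1 to 3 and at 3.59, 4.17, 3.16 and 4.38 CPM in AAV-iLuc replicates 1 to 4. The groups did not overlap, but AAV-iIL12 replicate 2 lay close to AAV-iLuc replicate 4. The means were 5.54 ± 0.756 CPM (SD, n = 3) and 3.82 ± 0.557 CPM (SD, n = 4), and Gch1 rose by 0.53 ± 0.16 on the log2 scale (SE, edgeR adjusted p = 0.0228). Without AAV-iLuc replicate 1 the difference was 0.50, with an edgeR adjusted p of 0.0498. Leaving out AAV-iIL12 replicate 1 ended the call (log2 fold change 0.48, edgeR adjusted p = 0.0728), as did leaving out AAV-iIL12 replicate 3 (0.47, 0.0898) or AAV-iLuc replicate 3 (0.45, 0.0515).

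Pts (ENSMUSG00000032067, chromosome 9, 50432917 to 50440024, minus strand) stood at 27.4, 28.5 and 30.2 CPM in AAV-iIL12 and at 27.6, 28.7, 27.5 and 25.3 CPM in AAV-iLuc. The groups overlapped, with means of 28.7 ± 1.41 CPM (SD, n = 3) and 27.3 ± 1.43 CPM (SD, n = 4). Its log2 fold change of 0.07 ± 0.07 (SE, edgeR adjusted p = 0.415) turned to -0.02 when library size was the only scaling, and without AAV-iLuc replicate 1 it was 0.09 (edgeR adjusted p = 0.438). Per kilobase of exon, Gch1 was 0.213, 0.16 and 0.193 of the Pts level in AAV-iIL12 and 0.127, 0.142, 0.112 and 0.169 of it in AAV-iLuc. The Gch1 share was above 0.2 of Pts only in AAV-iIL12 replicate 1, and AAV-iIL12 replicate 2 lay within the range of the controls.

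Other genes of tetrahydrobiopterin synthesis, recycling and control moved down or did not pass. Of 8 listed, 7 were tested, 0 rose, 3 fell and 4 did not pass, and Pcbd1 had no counts in any library. Sepiapterin reductase (Spr) stood at 46.4, 52.8 and 46.6 CPM in AAV-iIL12 and at 60.7, 66.2, 70.9 and 68.2 CPM in AAV-iLuc. All AAV-iIL12 libraries were below all controls, and Spr fell by 0.45 on the log2 scale (edgeR adjusted p = 5.48e-04). The recycling enzyme Qdpr fell by 0.17 (edgeR adjusted p = 0.0409), a call lost when any 1 of the AAV-iIL12 libraries, or replicate 3 or 4 of AAV-iLuc, was left out (edgeR adjusted p from 0.0505 to 0.130). Qdpr also lost its call with DESeq2 and without the low-count filter (edgeR adjusted p = 0.118). Akr1b3, the most abundant gene of the list, had a log2 fold change of -0.09 (edgeR adjusted p = 0.203), and was called lower with library size only (-0.18, 0.0212) and with upper quartile scaling (-0.17, 0.0305). The ratio of Gch1 to Spr per kilobase was 0.0729, 0.0502 and 0.0728 in AAV-iIL12 and 0.0335, 0.0357, 0.0252 and 0.0364 in AAV-iLuc, without overlap.

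Nos2 (ENSMUSG00000020826, chromosome 11, 78811613 to 78851080, plus strand) had 127, 64 and 53 counts in AAV-iIL12 and 47, 5, 4 and 11 counts in AAV-iLuc, or 7.74, 3.48 and 2.91 CPM against 2.44, 0.274, 0.238 and 0.567 CPM. The groups did not overlap, but AAV-iLuc replicate 1 lay nearer to the lowest AAV-iIL12 library than to the rest of its own group, and AAV-iIL12 replicate 1 was the highest of all. The means were 4.71 ± 2.64 CPM (SD, n = 3) and 0.881 ± 1.05 CPM (SD, n = 4). Nos2 rose by 2.37 ± 0.63 on the log2 scale (SE, edgeR adjusted p = 0.0114). Without AAV-iLuc replicate 1 the rise was 3.66 ± 0.50 (SE, edgeR adjusted p = 2.93e-04). Without AAV-iIL12 replicate 1 it was 1.83 and the call ended (edgeR adjusted p = 0.0520).

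Some markers of leukocytes, which the sort was meant to remove, were higher in the libraries with more Nos2, and most did not pass the test. Macrophages are a well-known source of this enzyme. Ptprc, the gene of CD45, had 37, 45 and 19 counts in AAV-iIL12 and 47, 3, 1 and 8 counts in AAV-iLuc, so AAV-iLuc replicate 1 was again the highest control. Over all 7 libraries Ptprc did not pass (log2 fold change 1.27, edgeR adjusted p = 0.213), and without AAV-iLuc replicate 1 it was called higher (3.09, edgeR adjusted p = 0.00137). The 12 macrophage and monocyte markers summed to 25.1 to 41.3 CPM in AAV-iIL12, 34.6 CPM in AAV-iLuc replicate 1 and 15.7 to 18.7 CPM in AAV-iLuc replicates 2 to 4. Most of the sum in AAV-iLuc replicates 2 to 4 was Cd68, at 13.9 to 16.8 CPM, which did not pass (log2 fold change 0.28, edgeR adjusted p = 0.0770). Of the 12 markers 8 were tested and 1 rose, the complement gene C1qb, with a log2 fold change of 2.48 (edgeR adjusted p = 0.0208). Csf1r and Mrc1 had log2 fold changes of -0.21 and -0.17 and did not pass. Without AAV-iLuc replicate 1, 6 were tested and 3 called higher, C1qb (3.73, edgeR adjusted p = 0.00296), Lyz2 (2.47, 0.00185) and C1qc (2.61, 0.00635). AAV-iIL12 replicate 1 and AAV-iLuc replicate 1 had the highest macrophage sums of their groups, as they had for Nos2. Between the groups the orders differed. AAV-iLuc replicate 1 had a higher macrophage sum than AAV-iIL12 replicates 2 and 3 (25.1 and 27.0 CPM) but less Nos2 (2.44 against 3.48 and 2.91 CPM).

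The 9 leukocyte markers summed to 46.4 to 50.1 CPM in AAV-iIL12, 54.5 CPM in AAV-iLuc replicate 1 and 31.0 to 44.6 CPM in the other controls, so the groups overlapped. Of these, 8 were tested and 1 called higher (Fermt3), and without AAV-iLuc replicate 1, 5 were tested and 3 called higher (Ptprc, Laptm5 and Fermt3). Lcp1 and Was did not pass with or without it, and Lcp1 alone, at 26.9 to 39.5 CPM per library, was most of the leukocyte sum. The 11 T and NK cell markers summed to 0.934 to 4.02, 1.35 and 0 to 0.0548 CPM in the same order, and none had enough counts to be tested. The 7 neutrophil markers summed to at most 0.572 CPM in any library, with Ly6g and Cxcr2 at 0 counts throughout. The 8 dendritic cell markers summed to 7.71 to 10.7 CPM in AAV-iIL12 and 6.09 to 8.81 CPM in AAV-iLuc, most of it Zbtb46, at 6.03 to 10.2 CPM per library, which did not pass. The 7 endothelial markers summed to 15.2 to 26.7 CPM in AAV-iIL12 and 19.4 to 24.9 CPM in AAV-iLuc. Most of that sum was Vwf, at 240 to 484 counts per library, while Pecam1, the gene of CD31, had at most 7 counts and Cdh5, Tie1 and Emcn had none. The 8 melanocyte and melanoma markers summed to 29100 to 29900 CPM in AAV-iIL12 and 23800 to 27100 CPM in AAV-iLuc. Fibroblasts and pericytes were not removed by the sort. The 8 fibroblast markers summed to 124 to 228 CPM in AAV-iIL12, highest in replicate 1, and to 133 to 342 CPM in AAV-iLuc. Of these, 7 were tested, 1 rose and 0 fell. The 5 pericyte markers summed to 10.4 to 13.6 CPM and 14.5 to 15.6 CPM. The part of such cells in the Nos2 difference was not tested.

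Per kilobase of exon, the ratio of Nos2 to Ptprc was 14.2, 5.87 and 11.5 in AAV-iIL12 and 4.13, 6.88, 16.5 and 5.67 in AAV-iLuc. The groups overlapped fully in this ratio, although it rests on only 1 to 8 Ptprc counts in AAV-iLuc replicates 2 to 4. The part of leukocyte RNA in the Nos2 difference was not tested. The tested genes with the most similar pattern to Nos2 were Gstm4, Msr1 and Hk3, with Pearson correlations of 0.99, 0.989 and 0.986 of log2 CPM over the 7 libraries. The 7 points share 2 groups, and 392 of 11979 genes with a standard symbol exceeded 0.9. Msr1, a macrophage scavenger receptor, rose by 2.10 on the log2 scale (edgeR adjusted p = 0.0159), and Hk3, a hexokinase found mainly in myeloid cells, by 2.44 (edgeR adjusted p = 0.0136). Both were low, Msr1 at 16 to 27 counts in AAV-iIL12 and 1 to 13 in AAV-iLuc, and Hk3 at 16 to 27 and 0 to 12. They were picked for likeness to Nos2 in these same libraries, so their rises are not separate evidence. Gstm4, a glutathione transferase, had a log2 fold change of 0.17 (edgeR adjusted p = 0.168). For Gch1 the closest were Matk, Fam160a2 and Gak, with correlations of 0.98, 0.978 and 0.973, and 254 genes exceeded 0.9.

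**Figure D2:**
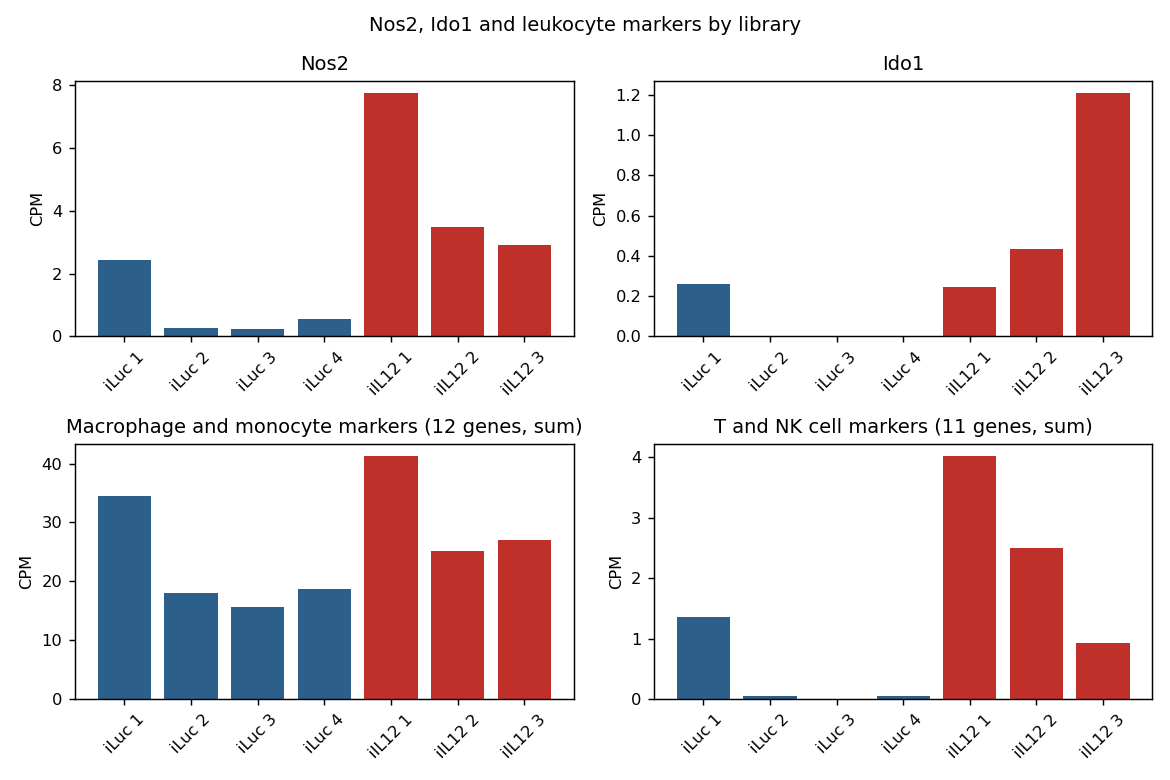
CPM of Nos2, of Ido1, of the 12 macrophage and monocyte markers summed and of the 11 T and NK cell markers summed (vertical axes starting at 0), with 1 bar per library, AAV-iLuc (iLuc) in blue and AAV-iIL12 (iIL12) in red, numbered by replicate. AAV-iLuc replicate 1 is the highest control in all 4 panels, with a macrophage sum of 34.6 CPM against 15.7 to 18.7 CPM in the other controls.

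Ass1 (ENSMUSG00000076441, chromosome 2, 31360219 to 31410684, plus strand), argininosuccinate synthase, stood at 18.7, 15.9 and 15.9 CPM in AAV-iIL12 and at 19.9, 19.6, 18.7 and 18.6 CPM in AAV-iLuc. AAV-iIL12 replicates 2 and 3 were below every control and replicate 1 was level with the lowest. The means were 16.8 ± 1.62 CPM (SD, n = 3) and 19.2 ± 0.662 CPM (SD, n = 4), and Ass1 did not pass the test (log2 fold change -0.19 ± 0.08 SE, edgeR adjusted p = 0.0900), nor without AAV-iLuc replicate 1 (-0.17, 0.190). It was called lower without AAV-iIL12 replicate 1 (-0.27, edgeR adjusted p = 0.0264), with library size as the only scaling (-0.28, 0.0190) and with upper quartile scaling (-0.26, 0.0257). Argininosuccinate lyase (Asl), the next enzyme of the same cycle, went from 61.3 ± 2.81 CPM (SD, n = 4) to 85.2 ± 1.77 CPM (SD, n = 3), and rose by 0.48 on the log2 scale (edgeR adjusted p = 5.64e-05). The ratio of Nos2 to Ass1 per kilobase was 0.225, 0.119 and 0.0997 in AAV-iIL12 and 0.0667, 0.00762, 0.00693 and 0.0166 in AAV-iLuc, so Nos2 stayed below Ass1 in every library.

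Arg2 (ENSMUSG00000021125, chromosome 12, 79177551 to 79203075, plus strand) had 2, 0 and 2 counts in AAV-iIL12 and 6, 2, 8 and 2 counts in AAV-iLuc. The groups overlapped at 2 counts. The ratio of AAV-iIL12 to AAV-iLuc, scaled to library size, was 0.309 with an exact 95% interval of 0.076 to 0.937, which covers counting error only, and without the low-count filter Arg2 did not pass (log2 fold change -1.62, edgeR adjusted p = 0.240). Arg1, the cytosolic arginase, named after its values were seen, had 22, 3 and 15 counts in AAV-iIL12 and 18, 0, 0 and 1 counts in AAV-iLuc. The Arg1 means were 0.776 ± 0.59 CPM (SD, n = 3) and 0.247 ± 0.46 CPM (SD, n = 4), and Arg1 did not pass (log2 fold change 1.55, edgeR adjusted p = 0.245). Without AAV-iLuc replicate 1, the highest control, it no longer had enough counts to be tested.

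Of 11 other genes of nitric oxide synthesis and signalling, 8 were tested, 3 rose, 1 fell and 4 did not pass, and without AAV-iLuc replicate 1 the risers were 2 of 7. Nosip, which binds nitric oxide synthases, rose by 0.28 (edgeR adjusted p = 0.00495). Ddah1, which degrades the synthase inhibitor asymmetric dimethylarginine, fell by 0.55 (edgeR adjusted p = 0.00129). Ddah2 had a log2 fold change of 0.22 (edgeR adjusted p = 0.0349), a call lost when any 1 AAV-iIL12 library, or replicate 1 or 3 of AAV-iLuc, was left out (edgeR adjusted p from 0.0546 to 0.0931). With library size only it was 0.13 (edgeR adjusted p = 0.181) and with upper quartile scaling 0.15 (0.130), and the Ddah2 call ended. The call also ended with DESeq2 (adjusted p = 0.0628) and without the low-count filter (edgeR adjusted p = 0.0963). Prkg1, the cyclic GMP-dependent kinase and the most abundant gene of this list, did not pass (0.20, edgeR adjusted p = 0.0733). It was called higher when replicate 1 of AAV-iIL12 (0.29, 0.00898) or replicate 2 of AAV-iLuc (0.24, 0.0471) was left out. Over all 7 libraries Prkg1 was also called higher by DESeq2 (adjusted p = 0.0496) and without the low-count filter (edgeR adjusted p = 0.0381). Nos1 and Nos3, the other nitric oxide synthase genes, were tested and did not pass (edgeR adjusted p = 0.223 and 0.997).

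Of 16 other genes of arginine and ornithine use, 12 were tested, 4 rose, 3 fell and 5 did not pass. The polyamine genes moved both ways. Spermidine synthase (Srm) fell from 45.9 ± 6.66 CPM (SD, n = 4) to 21.6 ± 0.798 CPM (SD, n = 3), by 1.08 on the log2 scale (edgeR adjusted p = 3.93e-05). Spermidine/spermine acetyltransferase (Sat1), which starts polyamine breakdown and export, rose from 56.7 ± 3.71 CPM (SD, n = 4) to 92.6 ± 10.9 CPM (SD, n = 3), by 0.71 (edgeR adjusted p = 7.93e-05). The smaller calls below were each lost when the libraries named were left out singly, and some under other scalings. Sms fell by 0.35 (edgeR adjusted p = 0.0227, up to 0.0684 when replicate 1 or 3 of either group was left out), and ornithine decarboxylase (Odc1) fell by 0.28 (edgeR adjusted p = 0.0291, up to 0.130 when replicate 2 or 3 of AAV-iIL12, or 3 or 4 of AAV-iLuc, was left out). Azin1, an inhibitor of antizyme, rose by 0.23 (edgeR adjusted p = 0.0178, up to 0.0611 when replicate 1 or 3 of AAV-iIL12 was left out). Its log2 fold change was 0.14 with library size only (edgeR adjusted p = 0.108) and 0.16 with upper quartile scaling (0.0770), and the call ended. Oat, the ornithine aminotransferase, rose by 0.15 (edgeR adjusted p = 0.0290, up to 0.0740 when replicate 2 or 3 of AAV-iIL12, or 2 or 4 of AAV-iLuc, was left out). Its log2 fold change was 0.06 with library size only (edgeR adjusted p = 0.323) and 0.08 with upper quartile scaling (0.208), so the call of Oat depended on the scaling.

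Of 12 transporters of tryptophan and cationic amino acids, 8 were tested, 2 rose, 2 fell and 4 did not pass. Slc3a2, the heavy chain of several amino acid exchangers, rose by 0.48 (edgeR adjusted p = 0.00177), and the exchanger Slc7a6 fell by 0.51 (edgeR adjusted p = 3.39e-04). Slc7a3, a cationic amino acid transporter, was low, at 1.46, 0.706 and 0.659 CPM in AAV-iIL12 and 0.416, 0.165, 0.477 and 0.309 CPM in AAV-iLuc. It rose by 1.44 (edgeR adjusted p = 0.0201), and without AAV-iIL12 replicate 1 the log2 fold change was 0.996 and the call ended (0.103). Slc25a15, the mitochondrial ornithine carrier, fell by 0.26 (edgeR adjusted p = 0.0181), a call lost when replicate 1 or 3 of AAV-iIL12 was left out (0.0613 and 0.0508).

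Ido1 (ENSMUSG00000031551, chromosome 8, 25074152 to 25087025, minus strand) had 4, 8 and 22 counts in AAV-iIL12 and 5, 0, 0 and 0 counts in AAV-iLuc. All control counts were in AAV-iLuc replicate 1, whose 0.26 CPM lay above the 0.244 CPM of AAV-iIL12 replicate 1, so the groups overlapped. Without that library the controls had 0 counts and the groups did not overlap, but Ido1 was still too low to be tested. The order of the AAV-iIL12 libraries was the reverse of that for Nos2, with replicate 3 highest at 1.21 CPM. The means were 0.629 ± 0.511 CPM (SD, n = 3) and 0.065 ± 0.13 CPM (SD, n = 4). The totals of 34 and 5 counts, scaled to library size, gave a ratio of 9.45 with an exact 95% interval of 3.68 to 30.9, which covers counting error only. Ido1 was below the low-count filter. Without that filter it was called higher, with a log2 fold change of 3.11 ± 0.80 (SE, edgeR adjusted p = 0.00228), beside Nos2 and Gch1, and 12.7% of 27255 genes were then called higher and 11.5% lower.

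Ido2 (ENSMUSG00000031549, chromosome 8, 25021908 to 25066349, minus strand) is the neighbour of Ido1 on the same strand. It had 8, 18 and 17 counts in AAV-iIL12 and 11, 5, 5 and 10 counts in AAV-iLuc, and AAV-iIL12 replicate 1 lay within the range of the controls. Its means were 0.800 ± 0.271 CPM (SD, n = 3) and 0.415 ± 0.151 CPM (SD, n = 4), with a log2 fold change of 0.93 ± 0.39 (SE, edgeR adjusted p = 0.0716), so it did not pass. Without AAV-iIL12 replicate 1 it was called higher (1.18, edgeR adjusted p = 0.0381), and without AAV-iLuc replicate 1 it no longer had enough counts to be tested.

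Afmid (ENSMUSG00000017718, chromosome 11, 117716750 to 117730734, plus strand) was the most abundant of the 5 kynurenine enzymes. It stood at 5.24, 4.67 and 4.89 CPM in AAV-iIL12 and at 6.66, 4.88, 6.43 and 5.82 CPM in AAV-iLuc. AAV-iLuc replicate 2 lay among the AAV-iIL12 libraries and the other controls lay above them. Afmid did not pass, with a log2 fold change of -0.27 ± 0.14 (SE, edgeR adjusted p = 0.149), or -0.21 without AAV-iLuc replicate 1 (0.319). Of its exon bases, 44.2% are shared with the predicted gene Gm20708 on the same strand, so fragments there may have been left out of its count.

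Kynu (ENSMUSG00000026866, chromosome 2, 43445341 to 43572734, plus strand) had 3, 0 and 2 counts in AAV-iIL12 and none in AAV-iLuc. The exact 95% interval of the ratio, which covers counting error only, began at 1.27 and had no upper limit, and without the filter it did not pass (edgeR adjusted p = 0.0949). Kmo (ENSMUSG00000039783, chromosome 1, 175447947 to 175489682, plus strand) had no counts in AAV-iIL12 and 4, 0, 0 and 0 counts in AAV-iLuc (edgeR adjusted p = 0.304 without the filter). With these totals neither gene could be tested at the filter used for the others.

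Of 9 other kynurenine pathway genes, 5 were tested, 0 rose, 1 fell and 4 did not pass, and Tdo2, Aadat and Acmsd had no counts in any library. The aminotransferase Kyat3 fell by 0.28 (edgeR adjusted p = 0.0385), a call lost when any 1 library other than AAV-iLuc replicate 2 was left out (edgeR adjusted p from 0.0659 to 0.102). Kyat3 also lost its call with DESeq2 (adjusted p = 0.103) and without the low-count filter (edgeR adjusted p = 0.125). Got2, the most abundant of the list, did not pass (-0.14, edgeR adjusted p = 0.120), but was called lower with library size only (-0.23, 0.0169) and with upper quartile scaling (-0.21, 0.0260). Tryptophan is also used outside this pathway. Wars, the tryptophanyl-tRNA synthetase gene that interferon gamma is known to induce, stood at 476, 424 and 417 CPM in AAV-iIL12 and at 149, 141, 146 and 136 CPM in AAV-iLuc. The groups did not overlap, and Wars rose by 1.62 on the log2 scale (edgeR adjusted p = 5.50e-07). AAV-iLuc replicate 1 did not stand apart for Wars.

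The aryl hydrocarbon receptor binds kynurenine and other ligands. Of 7 genes of the receptor and its targets, 5 were tested, 2 rose, 0 fell and 3 did not pass, the receptor gene Ahr among them (log2 fold change -0.04). Its partner Arnt rose by 0.36 (edgeR adjusted p = 5.44e-04) and the target gene Tiparp by 0.45 (edgeR adjusted p = 0.00727). The other tested targets, Ahrr (-0.53, edgeR adjusted p = 0.171) and Nqo1 (0.26, 0.264), did not pass. The classical target Cyp1a1 had too few counts to be tested.

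Of the 5 tetrahydrobiopterin-dependent hydroxylases, 2 were tested and moved in opposite directions, and Th had no counts in any library. Agmo, the alkylglycerol monooxygenase that cleaves ether lipids, stood at 6.09, 6.52 and 3.63 CPM in AAV-iIL12 and at 1.25, 1.81, 0.596 and 0.773 CPM in AAV-iLuc. The groups did not overlap and AAV-iLuc replicate 1 was not the highest control. Agmo rose by 2.28 ± 0.34 on the log2 scale (SE, edgeR adjusted p = 3.71e-04), and by 2.34 without AAV-iLuc replicate 1 (8.26e-04). Tph2, a tryptophan hydroxylase of serotonin synthesis, also counted under tryptophan use, fell by 0.46 (edgeR adjusted p = 0.0122).

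**Figure D3:**
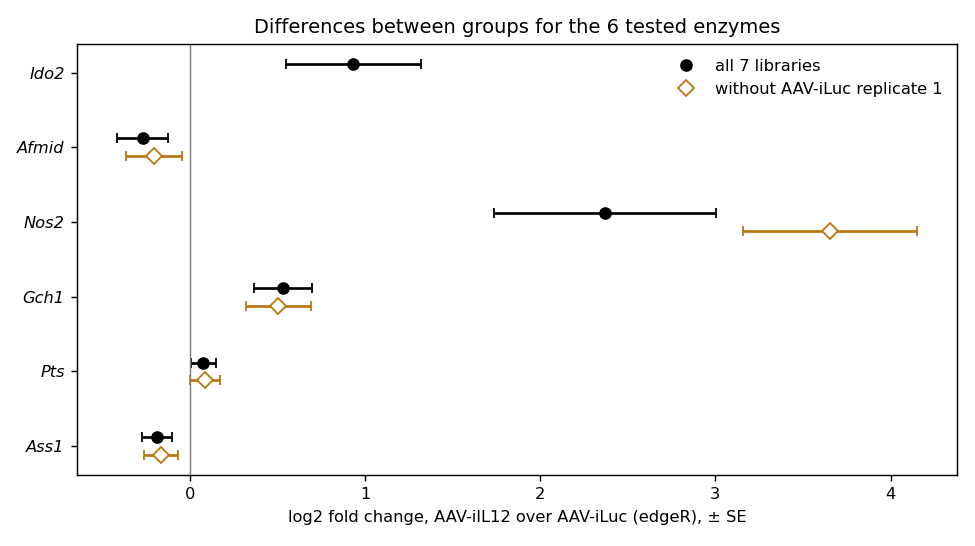
Log2 fold change (AAV-iIL12 over AAV-iLuc, edgeR, horizontal axis) of the 6 tested enzymes, with SE as bars, over all 7 libraries and without AAV-iLuc replicate 1. Nos2 is at 2.37 and 3.66, Gch1 at 0.53 and 0.50, and Ido2 has no value without that library.

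Of 10 genes of nicotinamide adenine dinucleotide synthesis and use, which the kynurenine pathway can feed, 9 were tested, 1 rose, 2 fell and 6 did not pass. Nampt, of the salvage route, rose from 327 ± 22.5 CPM (SD, n = 4) to 619 ± 33.8 CPM (SD, n = 3), by 0.92 (edgeR adjusted p = 6.92e-06). Parp1, which consumes the dinucleotide in DNA repair, fell by 0.79 (edgeR adjusted p = 4.54e-05), and the hydrolase Cd38 by 0.37 (edgeR adjusted p = 0.0163, and 0.0668 when replicate 3 of AAV-iIL12 was left out).

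The kinase GCN2 senses amino acid shortage, including loss of tryptophan or arginine, and acts through the factor ATF4. Of 15 genes of this response, 14 were tested, 3 rose, 3 fell and 8 did not pass. Cebpb, Ddit3 and Sesn2 rose by 1.22, 0.93 and 0.59 (edgeR adjusted p = 3.63e-04, 5.72e-04 and 0.00253). Of the exon bases of Ddit3, 6.13% are shared with a second annotated gene of the same symbol. The serine synthesis genes Psat1 and Phgdh fell by 0.72 and 0.73 (edgeR adjusted p = 1.09e-05 and 1.57e-05). Vldlr fell by 0.73 (edgeR adjusted p = 0.0242), a call lost when replicate 1 of AAV-iIL12 (0.0749) or replicate 2 of AAV-iLuc (0.0599) was left out. Atf4 itself did not pass (0.21, edgeR adjusted p = 0.0951).

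Of 9 genes of transcription factors and kinases known to control Ido1, Nos2 or Gch1, all 9 were tested, 8 rose, 0 fell and 1 did not pass. Irf9 rose by 1.64 (edgeR adjusted p = 6.72e-05) and Jak2 by 1.28 (edgeR adjusted p = 1.19e-06). Larger rises were those of Irf8 (5.14, edgeR adjusted p = 7.41e-04) and Irf1 (4.27, 3.13e-04), named after their values were seen. Without AAV-iLuc replicate 1 they rose by 7.21 and 5.38. That library had 121 CPM of Irf1 against 16.8 to 24.5 CPM in the other controls, and 42.3 CPM of Irf8 against 1.24 to 4.88 CPM. Hif1a did not pass (0.11, edgeR adjusted p = 0.197).

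**Figure D4:**
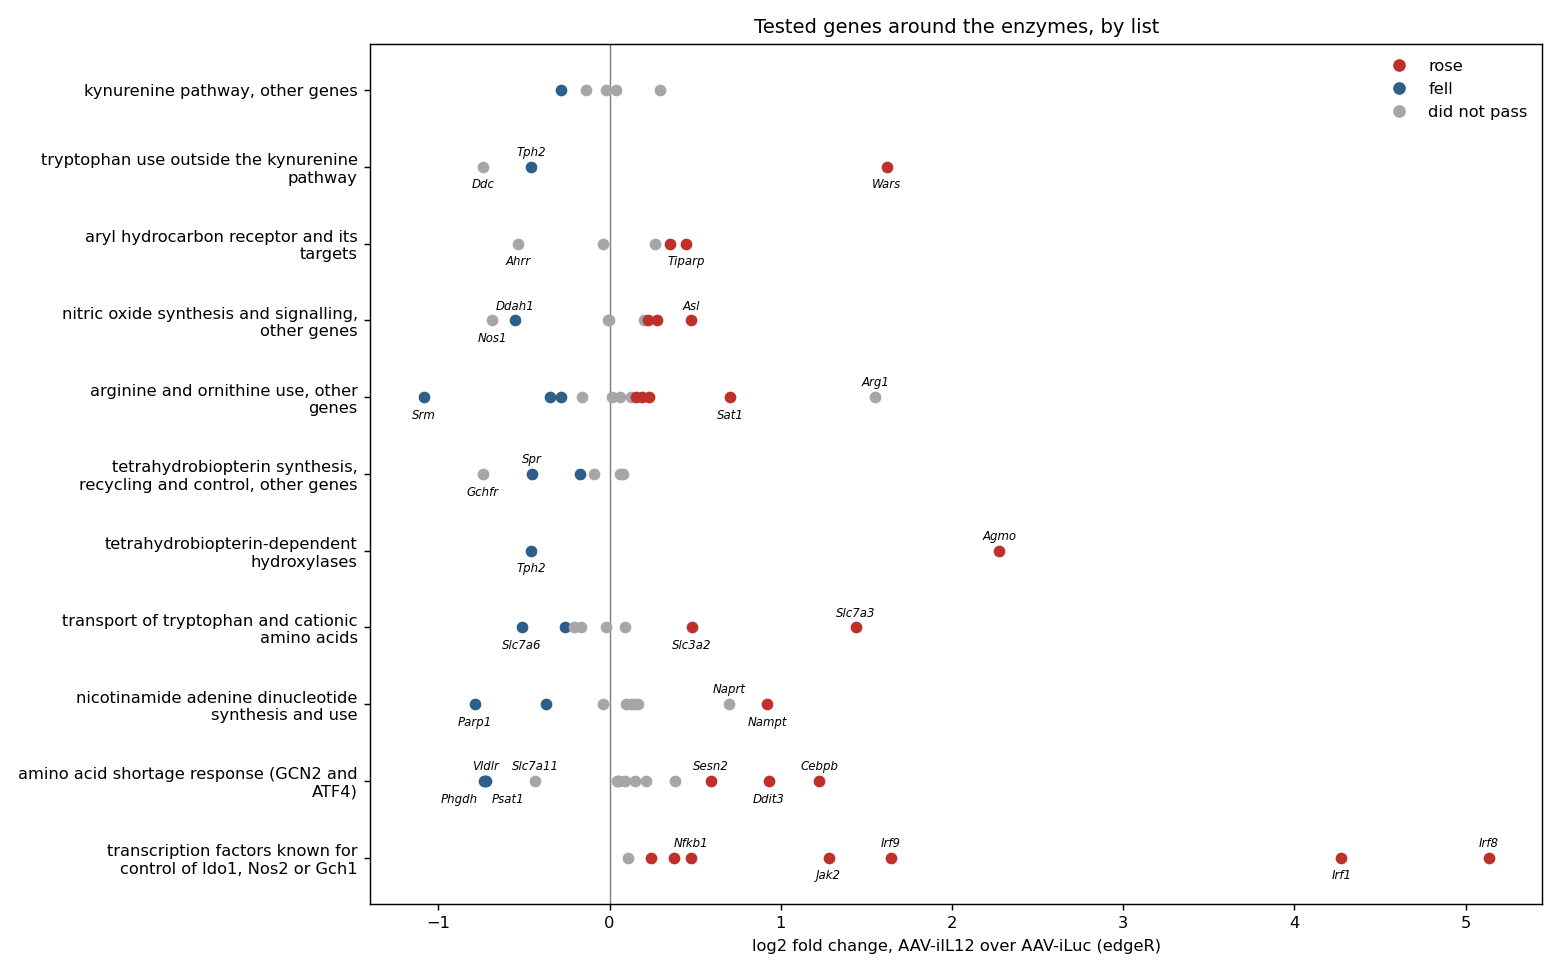
Log2 fold change (AAV-iIL12 over AAV-iLuc, edgeR, horizontal axis) of tested genes of 11 lists around the enzymes, 1 row per list and 1 point per gene, red for called higher, blue for called lower and grey for not passed. Genes not reported here are not drawn. No drawn gene of tetrahydrobiopterin synthesis and recycling lies in red, and of the transcription factor genes Hif1a alone lies in grey.

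Over all 11 lists, 104 genes were listed and 81 tested, of which 25 rose, 16 fell and 40 did not pass. Without AAV-iLuc replicate 1, 24 rose and 15 fell of 79. The calls of Kyat3 (edgeR adjusted p = 0.0731), Ddah2 (0.0903) and Sms (0.0563) ended without it, and Oaz1, an inhibitor of ornithine decarboxylase named after its values were seen, was called lower (0.0382). These counts are to be read beside the 23.5% and 23.7% of all tested genes called higher and lower.

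Levels of the enzymes can be ordered per kilobase of exon. In AAV-iIL12 the mean CPM per kilobase was 6.97 for Ass1, 4.71 for Pts, 1.39 for Afmid, 1.06 for Nos2, 0.887 for Gch1, 0.345 for Ido1, 0.220 for Ido2, 0.0541 for Arg2, 0.0159 for Kynu and 0 for Kmo. Neighbours overlapped between libraries for Afmid and Nos2, Nos2 and Gch1, Ido1 and Ido2, and for Arg2, Kynu and Kmo. In AAV-iLuc the order began in the same way with Ass1 at 7.95, Pts at 4.47 and Afmid at 1.68, followed by Gch1 at 0.612, Nos2 at 0.198, Arg2 at 0.175, Ido2 at 0.114, Ido1 at 0.0356, Kmo at 0.0110 and Kynu at 0. From Gch1 downward each neighbour overlapped the next. Ass1 and Pts were thus the most abundant of the enzymes in both groups.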

How the data were processed

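RNA from 7 libraries was measured by poly(A) sequencing with a kit that keeps strand, per the labels' protocols. The deposited values are raw counts per gene, made by the authors with featureCounts 1.6.0 over exons with reverse-stranded and paired settings and the GENCODE vM32 annotation, per the file headers. FastQC 0.11.8, STAR 2.7.9a, GRCm39, edgeR and limma are named in the submitters' processing notes. No option for multi-mapping or overlapping reads appears in the headers, so shared exons may be undercounted. Symbols came from GENCODE vM21 by gene identifier (52029 of 56953 matched, 99.4% of counts).

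The groups were compared in edgeR 4.0.16 (R 4.3.3) by the quasi-likelihood test on 13990 genes kept by filterByExpr, with TMM scaling and p-values adjusted by Benjamini-Hochberg (0.05). The SE is the log2 fold change over the root of F. The series' design text counts libraries as mice. The script was tested on simulated data. Alternatives were median-of-ratios, library size only, upper quartile, no filter, 1 CPM in 3 libraries, DESeq2 1.42.0, limma-voom (limma 3.58.1), the replicate number as a block and each library left out. Ratios of low counts have exact 95% binomial intervals, which cover counting error only.

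The enzymes and the gene lists were chosen with earlier results of these data known. Named besides the enzymes were, from each list, the 3 called genes with the smallest p in each direction and the most abundant gene, for each enzyme called the 3 genes of most similar log2 CPM (prior count 2), and Ptprc, Pecam1, Dct, Il12a and Il12b. Other genes were named after their values were seen. A few genes of the lists are counted but not reported here by name.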

Additional observations from a re-analysis of the deposited data

Results flagged for a closer look

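Within the 4 AAV-iLuc libraries, 62 measures were checked for a library far from the others, by its gap to the nearest library over the whole range of the group, against Dixon's 95% critical value. Chance alone passes about 1 in 20 groups of normally distributed values. The measures share the same 4 libraries, so several flags on 1 library are not separate observations. The critical value was exceeded by 6 measures, and AAV-iLuc replicate 1 was the highest library in 5 of them. For Ido1 and for Kmo the ratio was 1, since all control counts (5 and 4) were in that library. Any count found in a single library gives this ratio, so the rate of 1 in 20 does not hold for them. For Nos2 it was 0.851, for the summed macrophage and monocyte markers 0.844, and for the summed T and NK cell markers 0.959. The remaining measure was Akr1b3, where AAV-iLuc replicate 3 was the highest with a ratio of 0.917.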

How the results depend on the processing

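Among the 6 tested enzymes, 2 (Afmid and Pts) kept their side of the threshold under all 15 alternatives in which they were tested, Nos2 and Gch1 lost a call when single libraries were left out, and Ido2 and Ass1 gained one. The number of enzymes that fell became 1 (Ass1) with library size as the only scaling and 1 with upper quartile scaling, and the cause was not tested. When each library was left out in turn, between 1 and 2 enzymes rose and between 0 and 1 fell. The split of all genes into higher and lower was 2506 and 4460 under library size only and 2650 and 4225 under upper quartile scaling, against 3292 and 3316. The median log2 fold change over all tested genes was -0.0964 and -0.078 under these 2 scalings, against -0.00533. Calls gained under them, as for Ass1, Got2 and Akr1b3, thus came with a downward shift of all genes. Of the 40 named genes of the surrounding lists, 25 kept their side of the threshold throughout, 11 lost a call in at least 1 alternative (Kyat3, Ddah2, Azin1, Oat, Sms, Odc1, Qdpr, Slc7a3, Slc25a15, Cd38 and Vldlr), 4 gained one (Got2, Prkg1, Akr1b3 and Atf4) and 0 changed sign past the threshold. Besides the left-out libraries, Kyat3, Ddah2 and Qdpr lost their calls with DESeq2, without the filter and with the replicate block. Oat and Slc25a15 lost theirs without the filter and with the block, and Odc1 and Vldlr with the block. The number of surrounding genes that rose ranged from 21 to 28 and that fell from 11 to 21. With the number in the sample titles as a replicate block over 6 libraries, leaving out AAV-iLuc replicate 4, 2 enzymes rose (Nos2 by 2.50 and Gch1 by 0.60) and 2847 and 2800 genes rose and fell. Same-numbered libraries did not deviate together (correlations of 0.0876, 0.0337 and -0.0485), so the numbers were not taken to pair the mice. Low counts limit what can be said of Ido1, Kynu, Kmo and Arg2.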
